A study of Homo sapiens with 12 samples.

Results

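The genes described here encode splicing factors of 5 families, measured on 12 Affymetrix HG-U133 Plus 2.0 arrays of U937 cells, a human line from a histiocytic lymphoma that resembles immature monocytes. A gene belonged to the set if its symbol began with SRSF, HNRNP, SF3A, SF3B or SNRP, or if it was U2AF1, U2AF2, PTBP1, PTBP2 or PTBP3. It needed at least 1 probe set that the platform annotation gives to that gene alone, and pseudogenes were left out. The rule found 57 of the 19775 genes on the arrays, of which 55 encode proteins and are counted below: 19 HNRNP, 12 SNRP, 10 SRSF, 9 SF3A or SF3B, and 5 U2AF or PTBP genes. The other 2, HNRNPD-DT and SNRPF-DT, are noncoding transcripts that match by name, and neither was called in any comparison. SRSF2, SRSF9 and HNRNPH2 were among 9 further protein-coding genes with no probe set of their own, and were not analysed here.

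The cells were a derivative of U937 stably transduced with a TRIPZ Tet-On hairpin cassette against ZXDC1 and ZXDC2, and all groups were kept under puromycin. The 4 groups were PMA with doxycycline, PMA alone, vehicle with doxycycline, and vehicle alone, with 3 arrays each that the labels call biological replicates. PMA, a phorbol ester under which U937 cells take on macrophage features, was given at 100 nM for 3 days, and its vehicle was 0.1% DMSO. Doxycycline, which turns the hairpin on, was added each day for 4 days at 0.5 µg/mL, beginning 2 days before the agent, with the durations as the labels state them. The study asked which genes depend on ZXDC1 while PMA acts. Nothing says that the replicates were separate cultures, so p-values measure the spread between these arrays.

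Splicing removes introns from new transcripts. Small nuclear ribonucleoproteins (snRNPs), whose RNAs sit on rings of Sm proteins made by SNRP genes, recognise the ends of the intron and the branch point. U2AF binds the end of the intron, and the SF3A and SF3B complexes hold the U2 snRNP on the branch point. SR proteins (SRSF genes) mostly favour the use of nearby splice sites, while hnRNP proteins and the polypyrimidine tract binding proteins (PTBP genes) often oppose it, so that their balance helps to choose exons. Nearly all cells express these genes.

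The DNA before the starts of these genes was read from RefSeq on GRCh38.p14, as the 250 bases ahead of each listed start, for 52 of the 55 members. HNRNPA1, SF3B3 and SNRPD1 had no entry. Windows are shown for the members with the largest called fall under PMA in the SNRP, SF3 and HNRNP families, and for the 1 member that rose, because the results turn on them. Capitals mark every match, on either strand, to CCGGAAG (letters bound by ETS-family factors), CACGTG (an E-box), CCAAT (bound by NF-Y) or TGANTCA (bound by AP-1). The windows are SNRPF at chr12:95858702-95858951 on the plus strand, SF3A3 at chr1:37990023-37990272 on the minus strand, HNRNPM at chr19:8444725-8444974 on the plus strand and HNRNPLL at chr2:38602929-38603178 on the minus strand.
SNRPF: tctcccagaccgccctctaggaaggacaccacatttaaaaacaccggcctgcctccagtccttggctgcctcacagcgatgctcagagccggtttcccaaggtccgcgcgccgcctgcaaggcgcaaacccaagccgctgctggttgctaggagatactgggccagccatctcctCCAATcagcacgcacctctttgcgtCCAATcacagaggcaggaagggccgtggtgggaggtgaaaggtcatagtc
SF3A3: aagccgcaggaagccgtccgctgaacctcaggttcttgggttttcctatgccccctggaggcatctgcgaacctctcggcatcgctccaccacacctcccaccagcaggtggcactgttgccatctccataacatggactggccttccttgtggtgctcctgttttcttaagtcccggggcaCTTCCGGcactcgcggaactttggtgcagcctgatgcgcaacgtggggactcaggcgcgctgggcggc
HNRNPM: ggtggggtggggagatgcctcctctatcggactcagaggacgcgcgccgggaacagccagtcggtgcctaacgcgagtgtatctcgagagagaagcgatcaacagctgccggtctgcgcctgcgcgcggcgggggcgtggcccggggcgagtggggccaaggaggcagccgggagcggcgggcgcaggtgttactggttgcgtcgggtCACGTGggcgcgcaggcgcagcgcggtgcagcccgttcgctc
HNRNPLL: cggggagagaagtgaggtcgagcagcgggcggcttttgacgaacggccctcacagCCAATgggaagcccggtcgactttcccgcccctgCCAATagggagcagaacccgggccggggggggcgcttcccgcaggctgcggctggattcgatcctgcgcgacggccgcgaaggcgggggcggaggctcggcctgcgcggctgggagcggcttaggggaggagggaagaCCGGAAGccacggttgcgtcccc

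SNRPF carried 2 CCAAT matches, SF3A3 carried 1 CCGGAAG match, read on the other strand as CTTCCGG, and HNRNPM carried 1 CACGTG match. HNRNPLL carried 2 CCAAT matches and 1 CCGGAAG match. The windows of SRSF1 and U2AF1, the members of their families with the largest called falls, held none of these letters and are not shown. CCGGAAG stood before 19 of the 52 members (36.5%), against 14.0% of the 15843 protein-coding genes with an entry and 10.2% of all 27305 genes with an entry. CCAAT stood before 24 members (46.2%), against 40.2% of the protein-coding genes, and GGGCGG, the GC box bound by SP1, before 35 members (67.3%), against 62.1%. CACGTG stood before 6 members (11.5%), against 9.73% of the protein-coding genes, and TGANTCA before 3 (5.77%), against 7.09%. Both strands were searched for each motif, and matches of different motifs may share bases. A gene counted if any of its listed windows matched. The 52 members had 76 windows, and the shares were not adjusted for the number of windows per gene. CCGGAAG was held by 13 of the 39 members with an entry that fell under PMA and by 5 of the 12 that were not called. These are matches of letters, and binding was not measured.

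The targeted gene, ZXDC, was lower with doxycycline in both agents. Its log2 signal was 7.39, 7.43 and 7.02 under PMA with doxycycline against 7.96, 7.89 and 7.51 under PMA, and 7.16, 7.25 and 7.44 under vehicle with doxycycline against 8.01, 7.63 and 7.69 under vehicle. Averaged over both agents it differed by -0.50, with an exact permutation p of 0.005 (two-sided, 400 relabelings within agents, the smallest they can give). Without the arrays numbered 1 it differed by -0.39 (exact permutation p = 0.0556, the lowest value possible with 36 relabelings). Over its 6 probe sets the difference lay between -0.63 and -0.25. In the limma fit over all genes, used for the members below, ZXDC was called under neither agent. Its differences there were -0.50 (limma adjusted p = 0.613) under PMA and -0.49 under vehicle.

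The median log2 signal of an array was between 5.16 and 5.22, and 3 arrays a group limit the precision. The log2 signal between the 3′ and 5′ control probe sets of ACTB, which widens as RNA breaks down, differed by 1.99 to 2.72 on the 4 arrays numbered 1 and by 0.713 to 1.64 on the other 8. The same difference for GAPDH did not set the arrays numbered 1 apart, at 0.172 to 0.247 against 0.121 to 0.252 on the others. Replicate 1 was the lowest array for 33 of the 55 members in vehicle with doxycycline and 37 in vehicle, against 34.3% and 34.6% of all genes, and for 21 in PMA with doxycycline and 19 in PMA, against 37.3% and 41.6%. The part of RNA quality in the members' values was not tested beyond leaving these 4 arrays out. Of 10 measured myeloid markers LYZ and CEBPA were bright in all groups, with group means of 12.05 to 12.60 and 10.99 to 11.27 (log2), while MPO was dim, at 4.14 to 4.33. SPI1 lay near the array medians, at 5.25 to 5.62, and CSF3R was moderate, at 7.51 to 7.94. ITGAM, ITGAX, CD14 and CSF1R were called higher under PMA and ELANE lower. Among 21 measured markers of T and natural killer, B, erythroid and platelet, epithelial and fibroblast cells, PPBP was called higher and PAX5 lower under PMA, and NKG7 and COL1A1 were bright or moderate in all 4 groups, with means of 10.37 to 10.73 and 7.29 to 7.32. With doxycycline in both agents CD3D was also called higher under PMA, by 0.39 (limma adjusted p = 0.0207). The remaining markers of these cells had group means from 2.84 for EPCAM to 6.27 for HBB, and some lay above the array medians, such as CD79A at 6.01 to 6.16 and CD3E at 5.27 to 5.33. Their part in the results was not tested. In bulk samples fewer cells of a type and less RNA per cell cannot be told apart.

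Most splicing factor genes were lower in PMA-treated cells. In PMA against vehicle 42 of the 55 genes fell, 1 rose (HNRNPLL) and 12 were not called (limma on all 19775 genes, Benjamini-Hochberg adjusted p under 0.05). Over all genes 31.7% were called, 18.9% lower and 12.7% higher, whereas 76.4% of these genes were called lower. These genes are bright, and among the 3879 genes with a mean log2 signal of 9 or more 32.4% were called lower and 23.2% higher. Of the 48 splicing factor genes at that level 40 (83.3%) fell and 0 rose. The median difference over the 55 genes was -0.67 (log2), against 0.01 over all genes, and the quartiles were -0.89 and -0.43. The 3 PMA arrays lay entirely below the 3 vehicle arrays for 44 of the 55 genes and entirely above them for 1, while over all genes 23% lay below and 18.8% above without overlap.

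These counts depend on which probe set stands for a gene, here the brightest. With all probe sets of a gene averaged, 7 of the 43 calls were lost or turned in direction in PMA against vehicle. Without probe sets named _x_at or _s_at, which the maker marks as able to match more than 1 transcript, 12 of the 38 calls that could still be tested were. In all 16 of the 43 genes changed their call under at least 1 of these choices, and 16 of the 39 called with doxycycline. The values under these choices are given with each family, and what the other probe sets detect was not tested.

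With doxycycline in both agents the picture was similar in count. In PMA with doxycycline against vehicle with doxycycline 38 genes fell and 1 rose, beside 32.5% of all genes called (19.5% lower, 13% higher), and the median difference was -0.60 against -0.01 over all genes. Of the bright members 37 of 48 (77.1%) fell, against 33.4% of all bright genes. In each comparison HNRNPLL was the gene that rose, and 37 genes fell in both. Of all 19775 genes 3325 were called lower in both comparisons and 2101 higher in both. HNRNPDL, PTBP2, SF3A1, SNRPA1 and U2AF2 were called without doxycycline only and HNRNPK with it only. Being called in 1 comparison and not in the other does not show a difference, and the interaction called none of the 55 genes. The 11 genes called in neither were HNRNPF, SF3A2, SF3B1, SF3B2, SF3B4, SNRPN, SRSF5, SRSF6, SRSF8, SRSF11 and SRSF12.

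**Figure D1:**
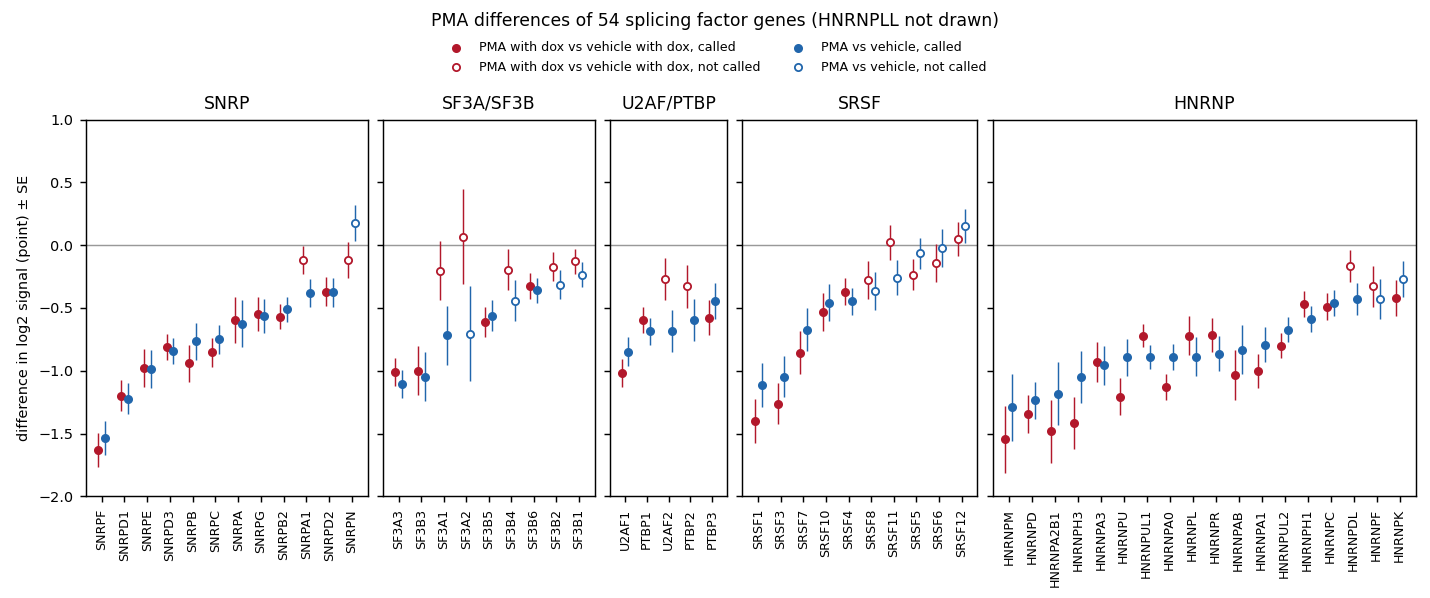
Difference in log2 signal between PMA with doxycycline and vehicle with doxycycline (red) and between PMA and vehicle (blue) for 54 splicing factor genes, in panels by family, with bars of 1 SE from limma (3 arrays a group) and filled points for genes called at adjusted p under 0.05. All but a few points lie below 0, the lowest being SNRPF at -1.63 and -1.54. HNRNPLL, at 6.39 and 6.07, is not drawn.

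Among the snRNP proteins, 11 of 12 SNRP genes fell under PMA and the median difference of the family was -0.69 (log2). SNRPF, a subunit of the Sm ring, had the lowest difference of all 55 genes. Its signals were 10.30, 10.37 and 10.42 (log2) under PMA against 11.67, 12.06 and 11.97 under vehicle, and 10.38, 10.14 and 10.08 under PMA with doxycycline against 11.63, 12.01 and 11.84 under vehicle with doxycycline. All PMA arrays lay more than 1 log2 unit below all vehicle arrays, and the differences of -1.54 (SE 0.13, limma adjusted p = 9.7e-07) and, with doxycycline, -1.63 left 0.344 of the vehicle level without doxycycline.

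SNRPD1, which encodes the Sm protein D1, had signals of 10.74, 10.45 and 10.60 (log2) under PMA against 11.62, 11.95 and 11.90 under vehicle, and 10.62, 10.48 and 10.38 under PMA with doxycycline against 11.55, 11.73 and 11.79 under vehicle with doxycycline. The groups did not overlap, and the differences were -1.22 (SE 0.12) and -1.20. SNRPE, another subunit of the ring, read 12.26, 11.82 and 12.17 (log2) under PMA against 12.85, 13.25 and 13.10 under vehicle, and 12.24, 11.82 and 11.91 under PMA with doxycycline against 12.91, 12.91 and 13.08 under vehicle with doxycycline. It differed by -0.99 and -0.98, again without overlap. For SNRPD3, which pairs with SNRPB in the ring, the signals were 11.04, 11.20 and 11.19 (log2) under PMA against 11.86, 11.997 and 12.10 under vehicle, and 11.12, 11.12 and 11.06 under PMA with doxycycline against 11.81, 11.93 and 11.99 under vehicle with doxycycline. Differences of -0.84 and -0.81 separated the groups.

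The other Sm genes moved less, with differences of -0.77 for SNRPB, -0.56 for SNRPG and -0.38 for SNRPD2 (all called). SNRPC and SNRPA, which encode proteins of the U1 snRNP, gave -0.75 and -0.62. SNRPB2 and SNRPA1, which encode proteins of the U2 snRNP, gave -0.51 and -0.38, and all 4 were called. With doxycycline the differences were -0.94 for SNRPB, -0.55 for SNRPG, -0.37 for SNRPD2, -0.85 for SNRPC, -0.60 for SNRPA and -0.57 for SNRPB2, and SNRPA1 was not called (-0.12, adjusted p = 0.492). SNRPN, the form of the SmB protein made mainly in brain, stayed dim, with group means of 2.83 to 3.04, and the probe sets it shares with SNURF and other genes were not used here. SNRPC, SNRPG and SNRPE have 20, 20 and 11 named pseudogenes in RefSeq, so probes for them may also bind other transcripts.

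Not every call in this family was equally firm. Leaving out single arrays ended the call of SNRPA without PMA replicate 3 or vehicle replicate 3 (adjusted p = 0.0821 and 0.0877), that of SNRPA1 without PMA replicate 2 or vehicle replicate 3 (0.0722 and 0.0782), and that of SNRPD2 without PMA replicate 2 or 3 or vehicle replicate 2 or 3 (0.0576 to 0.0983). With doxycycline SNRPA was lost without PMA with doxycycline replicate 1 or 3 or vehicle with doxycycline replicate 2 or 3 (0.0511 to 0.116). SNRPD2 was lost there without any 1 array except replicate 1 of PMA with doxycycline (0.0594 to 0.126). With all probe sets averaged, SNRPA1 gave -0.24 (adjusted p = 0.0773), and SNRPB2 gave -0.33, still called, and with doxycycline -0.19 (0.225). Without _x_at and _s_at probe sets SNRPA1 gave 0.11 (0.751), and SNRPE with doxycycline -0.56 (0.0810). With doxycycline 1 probe set of SNRPA1, without those endings, was called higher, by 0.68, and 2 others were called lower. Cyclic loess between arrays ended the calls of SNRPA1 and SNRPD2 (0.0611 and 0.0784) and, with doxycycline, those of SNRPA and SNRPD2 (0.0635 and 0.0937).

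The branch point complexes were split. Of 9 SF3A and SF3B genes 5 fell under PMA and 4 were not called, with a median of -0.56 and, with doxycycline, 4 calls and a median of -0.20. SF3A3, a subunit of the SF3A complex, had signals of 9.18, 8.98 and 9.14 (log2) under PMA against 10.03, 10.34 and 10.26 under vehicle, and 9.20, 9.01 and 9.12 under PMA with doxycycline against 10.07, 10.06 and 10.23 under vehicle with doxycycline. Its groups lay far apart, with differences of -1.11 (SE 0.11, limma adjusted p = 4.2e-06) and -1.01. SF3B3, a scaffold subunit of SF3B, read 7.998, 8.23 and 7.95 (log2) under PMA against 8.68, 9.30 and 9.35 under vehicle, and 7.97, 8.09 and 8.16 under PMA with doxycycline against 8.66, 9.37 and 9.20 under vehicle with doxycycline. The differences were -1.05 (SE 0.19) and -0.998, and the lowest vehicle array was replicate 1 in both settings. The other probe set of SF3B3 gave -0.25 and -0.082 and was called in neither comparison. With both averaged the gene was called, at -0.65 and -0.54.

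SF3B5, a small subunit of SF3B, read 11.42, 11.70 and 11.67 (log2) under PMA against 12.06, 12.27 and 12.14 under vehicle, and 11.55, 11.61 and 11.59 under PMA with doxycycline against 12.03, 12.42 and 12.14 under vehicle with doxycycline. It gave -0.56 and -0.61 without overlap, and SF3B6, the subunit that touches the branch point adenosine, gave -0.36 and -0.33, all called. SF3A1 had signals of 9.73, 9.55 and 8.54 (log2) under PMA against 10.02, 9.89 and 10.06 under vehicle, and 10.04, 9.61 and 9.63 under PMA with doxycycline against 9.99, 9.91 and 9.98 under vehicle with doxycycline. Its difference of -0.72 (SE 0.23, limma adjusted p = 0.0306) rested on PMA replicate 3, the lowest value by far, and without that array it was -0.35 with an adjusted p of 0.0922. The call was also lost without any 1 of the vehicle arrays (0.0542 to 0.0899), under cyclic loess (0.0724) and without _x_at and _s_at probe sets (-0.28, adjusted p = 0.283), and with doxycycline SF3A1 was not called (-0.20). SF3A2 and SF3B4 were lowest on the same array, at 5.83 and 7.09, and were not called (-0.71 and -0.44). SF3B1, the subunit that clamps the branch point and a frequent site of mutation in myelodysplastic syndromes, differed by -0.23 (adjusted p = 0.0915) and -0.13, and SF3B2 by -0.32 (0.0537) and -0.17. The call of SF3B6 was lost without PMA replicate 2 or vehicle replicate 2 or 3 (0.0523 to 0.0609), and with doxycycline without PMA with doxycycline replicate 2 or vehicle with doxycycline replicate 2 or 3 (0.0646 to 0.0822). With all its probe sets averaged SF3B6 gave -0.018 (adjusted p = 0.951) and, with doxycycline, 0.077 (0.764), and under cyclic loess it was not called (0.0517 and 0.103).

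All 5 U2AF and PTBP genes fell under PMA, with a median of -0.69, and 3 of them fell with doxycycline. With all probe sets of a gene averaged, PTBP2 was the only 1 of the 5 called without doxycycline, and of the 3 called with it PTBP1 alone kept its call. U2AF1, the subunit that reads the last bases of the intron, had signals of 11.25, 11.32 and 11.33 (log2) under PMA against 11.98, 12.28 and 12.19 under vehicle, and 11.29, 11.13 and 11.24 under PMA with doxycycline against 12.06, 12.35 and 12.30 under vehicle with doxycycline. Its differences were -0.85 (SE 0.11) and -1.02, and the groups did not overlap. The average of its probe sets differed by -0.17 (adjusted p = 0.262) and, with doxycycline, by 0.029 (0.882). U2AF2, which binds the polypyrimidine tract, read 8.73, 8.92 and 8.98 (log2) under PMA against 9.29, 9.86 and 9.53 under vehicle, and 8.98, 9.12 and 9.13 under PMA with doxycycline against 8.99, 9.60 and 9.45 under vehicle with doxycycline. The difference without doxycycline was -0.69 (SE 0.17, limma adjusted p = 0.0052), while with doxycycline the groups overlapped and the gene was not called (-0.27, adjusted p = 0.259). The difference of U2AF2 without doxycycline was -0.21 with its probe sets averaged (0.175) and 0.067 without _x_at and _s_at probe sets (0.853).

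PTBP1, a repressor of many exons, had signals of 11.16, 11.35 and 11.20 (log2) under PMA against 11.81, 11.99 and 11.97 under vehicle, and 11.39, 11.22 and 11.33 under PMA with doxycycline against 11.82, 11.99 and 11.94 under vehicle with doxycycline. It differed by -0.69 and -0.60 with no overlap. Of the 4 probe sets of PTBP1 this was the only 1 called lower without doxycycline. Their average gave -0.16 (adjusted p = 0.225) and, with doxycycline, -0.29 (0.0262), and without _x_at and _s_at probe sets the gene gave 0.13 (0.612) and -0.019 (0.953). PTBP2, its neuronal relative, read 7.52, 7.08 and 6.94 (log2) under PMA against 7.81, 7.76 and 7.75 under vehicle, and 7.26, 7.25 and 6.69 under PMA with doxycycline against 7.34, 7.31 and 7.53 under vehicle with doxycycline. PMA without doxycycline lowered its signal by 0.59 (limma adjusted p = 0.0140), a call lost without PMA replicate 2 or 3 (0.0537 and 0.0721), and with doxycycline the difference was -0.33 and not called. PTBP3, a relative made mainly in blood-forming cells, fell by 0.45 and, with doxycycline, 0.58, and the call without doxycycline was lost without PMA replicate 2 or 3 or vehicle replicate 1 or 2 (0.0505 to 0.117) and under cyclic loess (0.0806). The average of the PTBP3 probe sets differed by 0.0037 (0.987) and, with doxycycline, by 0.016 (0.943).

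Of the 10 SR protein genes 5 fell under PMA, with a median of -0.41, and 5 with doxycycline, with a median of -0.33. SRSF1, the best studied SR protein, had signals of 11.04, 10.96 and 11.21 (log2) under PMA against 11.82, 12.49 and 12.24 under vehicle, and 10.51, 10.78 and 10.71 under PMA with doxycycline against 11.72, 12.23 and 12.24 under vehicle with doxycycline. The differences were -1.11 (SE 0.18, limma adjusted p = 1.9e-04) and -1.40. SRSF3, the smallest SR protein and also an export adaptor, read 11.54, 11.47 and 11.78 (log2) under PMA against 12.35, 12.81 and 12.76 under vehicle, and 11.22, 11.13 and 11.44 under PMA with doxycycline against 12.21, 12.63 and 12.75 under vehicle with doxycycline. It differed by -1.05 (SE 0.16) and -1.26. Both genes were separated in each setting, so that the highest PMA array stayed below the lowest vehicle array. With all probe sets averaged SRSF1 gave -0.61 and -0.73, both called. SRSF3 turned in sign without _x_at and _s_at probe sets, to 0.29 (adjusted p = 0.432) and, with doxycycline, 0.43 (0.201). Under that choice 232392_at alone stood for SRSF3. Another probe set without those endings, 235324_at, was lower under PMA, with group means of 5.62 against 7.14 under vehicle. With doxycycline its means were 5.09 and 6.72.

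SRSF7, like SRSF3 a factor that helps export of mRNA, had signals of 11.54, 11.68 and 11.81 (log2) under PMA against 12.08, 12.50 and 12.46 under vehicle, and 11.25, 11.59 and 11.70 under PMA with doxycycline against 11.997, 12.56 and 12.55 under vehicle with doxycycline. Differences of -0.67 and -0.86 were both called. Without _x_at and _s_at probe sets the sign of SRSF7 turned, to 0.11 (adjusted p = 0.782) and, with doxycycline, 0.025 (0.953), while the average of its 4 probe sets gave -0.34 and -0.52, both called. SRSF4 read 10.40, 10.56 and 10.36 (log2) under PMA against 10.74, 10.98 and 10.95 under vehicle, and 10.83, 10.67 and 10.64 under PMA with doxycycline against 11.03, 11.13 and 11.10 under vehicle with doxycycline. Its differences were -0.45 and -0.37, and in each agent its 3 arrays with doxycycline lay above the 3 without. The average of the SRSF4 probe sets gave -0.15 (adjusted p = 0.590) and, with doxycycline, 0.071 (0.816), and cyclic loess ended the call with doxycycline (0.0990). SRSF10, a splicing repressor after heat shock, differed by -0.46 and -0.53, both called. The arrays of SRSF10 overlapped without doxycycline, and its call was lost without PMA replicate 1 or 2 or vehicle replicate 2 or 3 (adjusted p = 0.0758 to 0.142) and under cyclic loess (0.0825), but without _x_at and _s_at probe sets it was called at -0.97. SRSF5, SRSF6, SRSF11 and SRSF8 gave -0.07, -0.03, -0.26 and -0.36 without doxycycline and -0.23, -0.14, 0.02 and -0.28 with it, none of them called. SRSF12 was dim, with group means of 2.99 to 3.14.

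The hnRNP genes held both the largest number of falls and the only rise, with 16 of 19 lower and 1 higher in each setting, and medians of -0.86 and -0.80. HNRNPM, which represses or activates exons through GU-rich sites, had signals of 9.69, 9.98 and 10.03 (log2) under PMA against 10.74, 11.51 and 11.31 under vehicle, and 9.22, 9.41 and 9.46 under PMA with doxycycline against 10.14, 11.34 and 11.26 under vehicle with doxycycline. Replicate 1 was the lowest array in each group. The differences were -1.29 (SE 0.27, limma adjusted p = 0.0017) and -1.55. Without _x_at and _s_at probe sets the sign of HNRNPM turned, to 0.65 (adjusted p = 0.0694) and, with doxycycline, 1.25 (0.0012, called higher). The average of its probe sets gave -0.31 (0.0342) and, with doxycycline, -0.22 (0.121). HNRNPD, also called AUF1, a protein that binds AU-rich mRNAs, read 11.22, 11.48 and 11.21 (log2) under PMA against 12.31, 12.58 and 12.72 under vehicle, and 11.003, 11.36 and 11.29 under PMA with doxycycline against 12.32, 12.59 and 12.78 under vehicle with doxycycline. It differed by -1.24 (SE 0.15) and -1.35 and its groups did not overlap. The sign of HNRNPD turned without _x_at and _s_at probe sets, to 0.40 (adjusted p = 0.583) and, with doxycycline, 0.64 (0.328), while the average of its 9 probe sets gave -0.87 and -0.90, both called. Under that choice 213359_at alone stood for HNRNPD. Its probe sets 221480_at and 229129_at, also without those endings, fell further than the main one in both settings.

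HNRNPA2B1, which together with HNRNPA1 forms part of the core of hnRNP particles, had signals of 11.40, 11.89 and 12.29 (log2) under PMA against 12.74, 13.20 and 13.18 under vehicle, and 10.84, 11.76 and 11.67 under PMA with doxycycline against 12.74, 12.86 and 13.11 under vehicle with doxycycline. The differences were -1.18 (SE 0.25) and -1.48, although replicate 1 under PMA with doxycycline stood well below the other 2. The remaining 3 of the 4 probe sets of HNRNPA2B1 were not called in either comparison. Without _x_at and _s_at probe sets it gave -0.095 (adjusted p = 0.768) and, with doxycycline, -0.13 (0.675), and the average of all 4 gave -0.34 (0.0348) and -0.48 (0.0048). HNRNPH3, a relative of the G-run binding protein HNRNPH1, read 9.36, 9.40 and 9.77 (log2) under PMA against 10.31, 10.70 and 10.69 under vehicle, and 8.56, 9.19 and 9.30 under PMA with doxycycline against 10.16, 10.34 and 10.81 under vehicle with doxycycline. It differed by -1.05 (SE 0.21) and -1.42. Neither gene had PMA arrays as high as any vehicle array of the same setting.

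A further 9 hnRNP genes fell in both settings, with differences of -0.96 to -0.67 without doxycycline and -1.21 to -0.71 with it. They were HNRNPA3 (-0.96), HNRNPU (-0.89), HNRNPUL1 (-0.89), HNRNPA0 (-0.89), HNRNPL (-0.89), HNRNPR (-0.86), HNRNPAB (-0.83), HNRNPA1 (-0.79) and HNRNPUL2 (-0.67). HNRNPU, a scaffold of chromatin and RNA, had the largest of these falls with doxycycline (-1.21). HNRNPA1 lost its call without _x_at and _s_at probe sets (-0.35, adjusted p = 0.214, and with doxycycline -0.31, 0.270), as did HNRNPR with doxycycline (-0.45, 0.138). HNRNPH1 and HNRNPC, which binds uridine tracts, gave -0.59 and -0.46, and -0.47 and -0.49 with doxycycline, all called. HNRNPH1 missed the threshold without _x_at and _s_at probe sets, at -0.42 (adjusted p = 0.0542) and -0.37 (0.0858), whereas HNRNPC gave -1.11 and -1.15, both called. HNRNPDL differed by -0.43 and -0.16, and only the first was called, a call lost without PMA replicate 1 (adjusted p = 0.0571), without vehicle replicate 1 or 3 (0.0743 and 0.0766), without all 4 arrays numbered 1 (0.116) and under cyclic loess (0.0709). HNRNPDL was called at -0.86 without _x_at and _s_at probe sets. HNRNPK, a bright gene with group means of 12.52 to 12.94, differed by -0.27 (not called) and -0.42 (adjusted p = 0.0366), and leaving out any 1 array of PMA with doxycycline, or vehicle with doxycycline replicate 2 or 3, ended its call (0.0631 to 0.148), as did cyclic loess (0.120). HNRNPF was not called, at -0.43 (adjusted p = 0.0591) and -0.33. HNRNPA1, HNRNPA3 and HNRNPC have 75, 17 and 9 named pseudogenes, so their probe sets may take up signal of other transcripts.

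HNRNPLL, known for choosing exons of the CD45 mRNA in activated lymphocytes, went the other way. Its signals were 11.07, 9.505 and 9.58 (log2) under PMA against 4.10, 4.04 and 3.79 under vehicle, and 11.33, 9.99 and 9.999 under PMA with doxycycline against 4.28, 3.94 and 3.93 under vehicle with doxycycline. All PMA arrays lay far above all vehicle arrays, and replicate 1 was the highest PMA array in both settings. The differences were 6.07 (SE 0.39, limma adjusted p = 4.7e-08), which is 67.4-fold on the linear scale, and 6.39 with doxycycline. The average of its 4 probe sets gave 2.96 and 3.23, and without _x_at and _s_at probe sets the gene gave 0.99 and 1.38, all called. Vehicle signals were dim, below the array medians of 5.16 to 5.22, and fold changes of dim probe sets depend on the background correction.

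**Figure D2:**
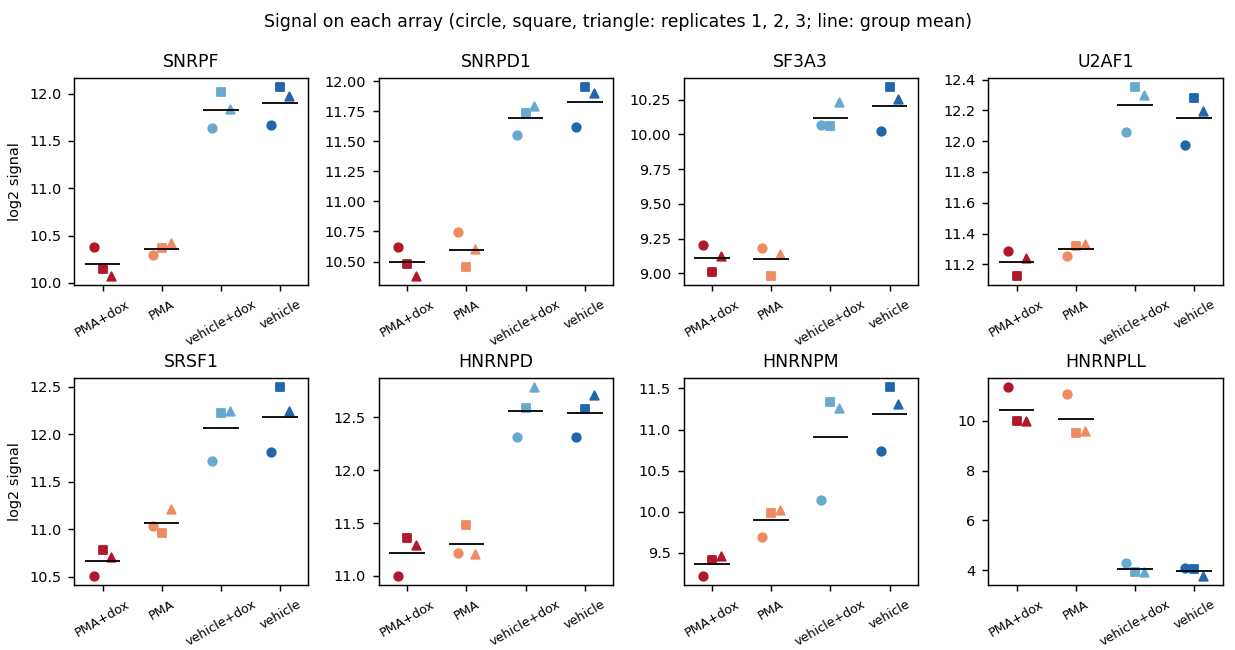
Log2 signal on each array for 8 splicing factor genes in 4 groups of 3 arrays, with circles, squares and triangles for replicates 1, 2 and 3 and lines for group means. For SNRPF, SNRPD1, SF3A3, U2AF1, SRSF1, HNRNPD and HNRNPM the PMA arrays lie below the vehicle arrays of the same doxycycline setting, and for HNRNPLL they lie above them. Each panel has its own axis, which does not begin at 0.

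When each array was left out in turn, 34 of the 43 calls in PMA against vehicle were kept under every omission, and 33 of the 39 calls with doxycycline. Besides the genes named above, SRSF4 lost its call with doxycycline without PMA with doxycycline replicate 2 or 3 (adjusted p = 0.0520 and 0.0605), and SRSF10 without PMA with doxycycline replicate 1 or vehicle with doxycycline replicate 3 (0.0513 and 0.0591). A fit on the groups of the comparison alone ended the calls of SF3A1 and SRSF10 (0.0644 and 0.0666) and, with doxycycline, that of SNRPD2 (0.0637). Without all 4 arrays numbered 1, 47 and 41 members were called, and the share of all genes called without them is not given here.

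Related genes outside the 5 families were read for comparison from lists of other splicing proteins. Of 121 measured genes 61 fell under PMA, 3 rose and 57 were not called, with a median difference of -0.40, and with doxycycline 57 fell and 5 rose. Of the LSm and snRNP assembly genes 17 of 19 fell, among them GEMIN5 (-1.72) and GEMIN4 (-1.38) of the SMN complex, which loads Sm rings onto RNA. All 3 measured genes of the exon junction complex fell, with MAGOHB at -1.04 and RBM8A at -0.58. Among partners of the U2 snRNP 7 of 11 fell, including CHERP (-1.09) and RBM17 (-0.81). Of proteins of the U1, U4/U6.U5 and minor snRNPs 8 of 19 fell, including SNRNP40 (-1.11) and PRPF8 (-0.83), the large protein at the centre of the spliceosome.

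Spliceosomal helicases fell in 4 of 9 cases, among them DDX39A (-0.83) and DDX46 (-0.53). In the Prp19 complex and step factors 6 of 18 fell, with PRPF19 at -1.28 and CWC15 at -0.58, and SLU7, a factor of the second step, rose by 0.50. SR-like proteins and SR protein kinases fell in 5 of 14 cases, including TRA2B (-0.86) and the kinase SRPK1 (-0.86), which phosphorylates SR proteins. Among 28 other regulators of alternative splicing 11 fell and 2 rose. The muscleblind genes MBNL3 and MBNL2 went apart, at -1.30 and 1.12, while KHSRP fell by 1.05 and PCBP1 rose by 0.32. The counts without doxycycline stand beside 18.9% of all genes called lower and 12.7% called higher. Those with doxycycline stand beside 19.5% and 13%, and the difference between lists was not tested.

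**Figure D3:**
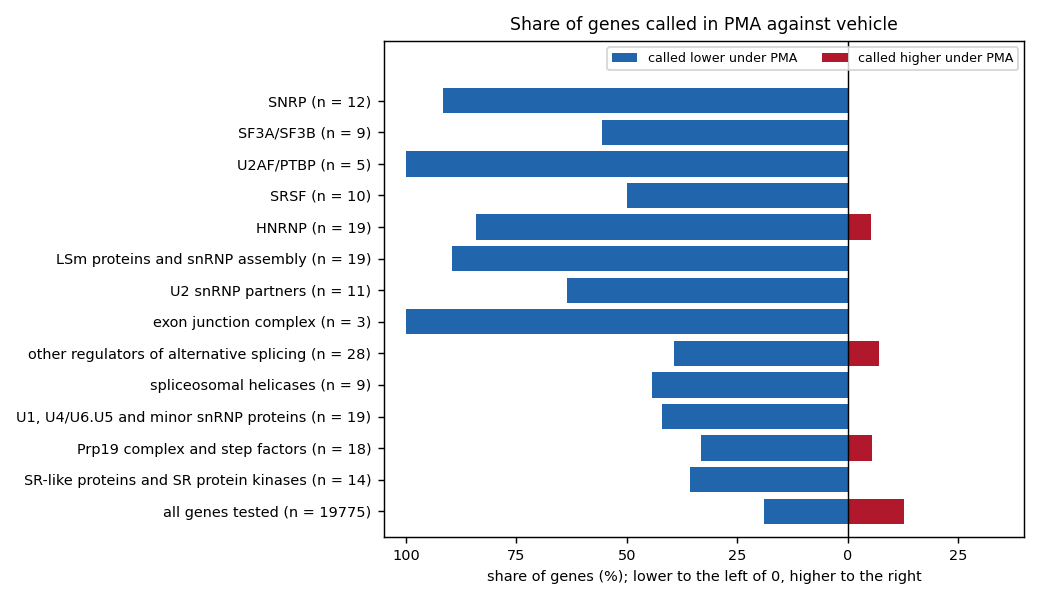
Share of genes called lower (blue, left of 0) and higher (red, right of 0) in PMA against vehicle, in percent, for the 5 families, for 8 further lists of splicing proteins and for all 19775 genes, with the number of genes in brackets. The SNRP family has 91.7% lower and the SRSF family 50%, against 18.9% of all genes.

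Most members are read by several probe sets, and these did not always move together. The 55 genes have 174 probe sets, of which 91 were called lower, 4 higher and 79 not called in PMA against vehicle, beside 26.8% of the 41091 single-gene probe sets called (15.5% lower, 11.3% higher). With doxycycline 90 were called lower and 7 higher, beside 27.8%. Leaving aside the probe set that stood for each gene, 49 of 119 were called lower and 3 higher, against 13% of all such probe sets called lower. Of 43 genes with several probe sets 8 had all of them called lower without doxycycline: HNRNPA3, HNRNPH3, HNRNPL, HNRNPR, HNRNPUL1, SNRPB, SNRPD1 and SNRPE. The share of such genes among all genes with several probe sets is not given here, so this count is not compared with other genes. Probe sets whose name ends in _x_at or _s_at fell in 15 of 26 and 35 of 59 cases (57.7% and 59.3%), and the others in 41 of 89 (46.1%), against 14.7%, 19.4% and 14.2% of all probe sets of each kind.

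Several genes had probe sets called in opposite directions. For HNRNPM the probe sets 200072_s_at and 1555844_s_at gave -1.29 and -1.35 under PMA, both called, while 1555843_at differed by 0.65 (adjusted p over probe sets 0.0777) and, with doxycycline, rose by 1.25 (0.0017). The signals of 1555843_at were 8.04, 7.21 and 6.77 under PMA with doxycycline against 6.13, 6.13 and 5.998 under vehicle with doxycycline, and 6.65, 6.76 and 6.15 under PMA against 6.09, 5.84 and 5.70 under vehicle. It was highest on the PMA arrays with doxycycline, replicate 1 above all. PTBP3 was lower by 0.45 on 224617_at and higher by 0.71 (adjusted p over probe sets 0.0031) on 207223_s_at. Signals of 207223_s_at were 5.88, 5.93 and 5.81 under PMA against 5.18, 4.92 and 5.39 under vehicle. With doxycycline U2AF1 rose by 0.45 on 232141_at and SNRPA1 by 0.68 on 242146_at, whereas 202858_at of U2AF1 fell by 1.02.

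Other genes had probe sets that fell further than the one that stood for the gene. HNRNPD had 221480_at and 229129_at at -2.09 and -2.12, while 213359_at gave 0.40 with a wide error (SE 0.44). On 213359_at replicate 1 was the highest array in each group, such as 10.46 against 9.37 and 9.30 under PMA. In SRSF3 4 probe sets gave between -1.05 and -1.52, and 232392_at gave 0.29, which was not called. All 4 probe sets of HNRNPLL were higher under PMA, by 6.07 on 225386_s_at, 3.40 on 225385_s_at, 0.99 on 236104_at and 1.38 on 1554453_at, the last of them not called. Replicate 1 was the highest PMA array on all 4, both with and without doxycycline. SF3B1 was called lower on 229303_at alone of its 5 probe sets (-0.58). Where in the transcripts these probe sets lie was not analysed here.

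**Figure D4:**
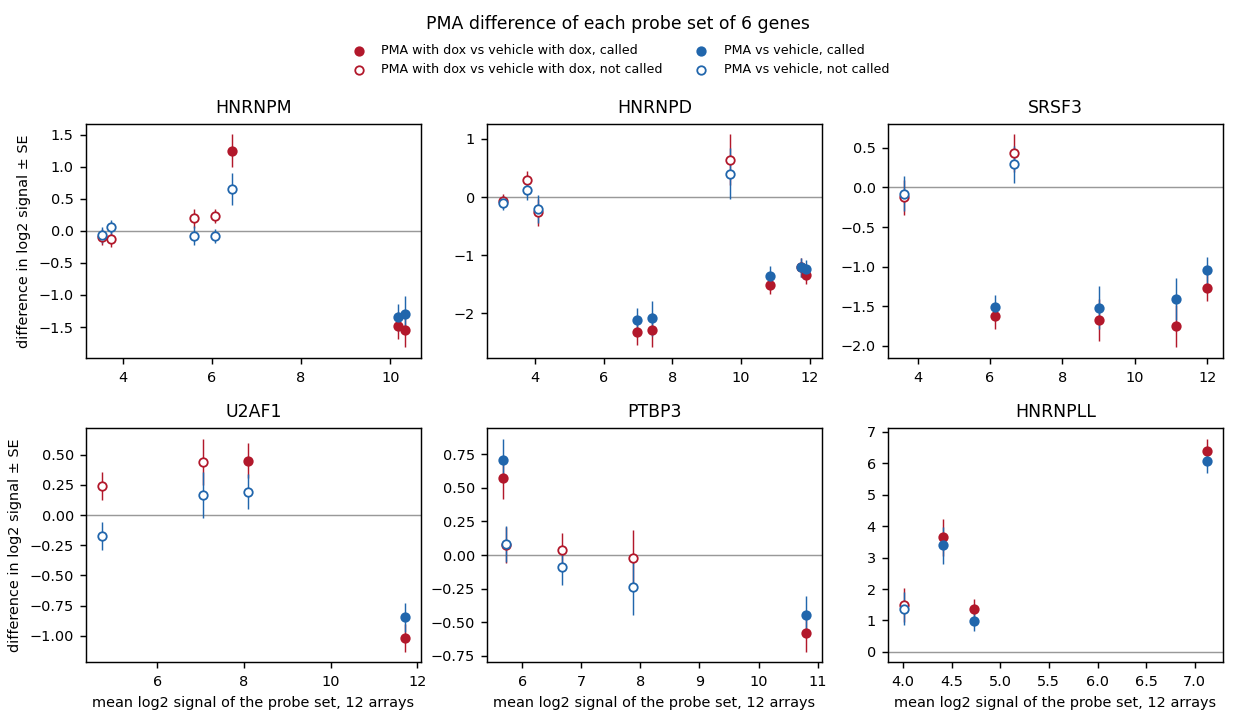
Difference in log2 signal for each probe set of 6 genes, PMA with doxycycline against vehicle with doxycycline (red) and PMA against vehicle (blue), against the mean log2 signal of the probe set over 12 arrays, with bars of 1 SE and filled points for called probe sets. HNRNPM, U2AF1 and PTBP3 have bright probe sets below 0 and a dimmer called one above 0, while all points of HNRNPLL lie above 0.

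Doxycycline, and with it the hairpin, gave no called difference in these genes. The same limma test did not call ZXDC, the target of the hairpin, under either agent, so a missing call here says little. In PMA with doxycycline against PMA 0 of 55 were called by limma, beside 1 gene (0.00506%) of all 19775, and 4 members had an unadjusted p under 0.05, against 6.14% of all genes. Their differences ran from -0.53 to 0.71 with a median of -0.04. In vehicle with doxycycline against vehicle 0 of 55 were called, beside 0% of all genes, and 1 had an unadjusted p under 0.05, against 2.58% of all genes. The range there was -0.38 to 0.21 and the median -0.06. In the interaction 0 of 55 were called, beside 0% of all genes, and 0 of 55 had an unadjusted p under 0.05, against 2.62%.

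The members of smallest p under PMA were HNRNPU, SRSF4, HNRNPH3, SRSF1 and HNRNPA0. HNRNPU read 10.83, 11.10 and 10.996 with doxycycline against 11.25, 11.37 and 11.58 without, a difference of -0.43 (SE 0.15, limma adjusted p = 0.686). SRSF4 read 10.83, 10.67 and 10.64 against 10.40, 10.56 and 10.36, a difference of 0.27 (adjusted p = 0.760). Neither overlapped, and neither passed the test over all genes. HNRNPH3, SRSF1 and HNRNPA0 differed by -0.49, -0.40 and -0.22 (adjusted p = 0.794, 0.794 and 0.807), also without overlap, from the array values given with each gene or, for HNRNPA0, 9.72, 9.89 and 9.68 with doxycycline against 10.004, 10.01 and 9.92 without. For 12 of the 55 genes the arrays with and without doxycycline did not overlap, 4 higher and 8 lower, beside 4.83% and 5.9% of all genes.

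Arrays of the same number with and without doxycycline deviated together, so they were also read as pairs. Under PMA 17 of the 55 genes were lower with doxycycline in all 3 pairs and 12 were higher, beside 18.5% and 14.1% of all genes. Under vehicle 15 were lower and 9 higher in all 3 pairs, beside 13.5% and 16.7% of all genes. HNRNPM, PTBP3, SRSF1, SRSF3 and SRSF6 were lower in all 6 pairs (beside 4.01% of all genes), and HNRNPL and SRSF4 were higher in all 6 (beside 3.01%). A limma fit with the 6 pairs as a replicate block called 53 of all 19775 genes in PMA with doxycycline against PMA, in place of 1, and 0 of the 55. The adjusted p in that fit was 0.111 for HNRNPU, 0.129 for SRSF1, 0.137 for HNRNPH3, 0.263 for SRSF4 and 0.330 for HNRNPA0.

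Under vehicle the smallest p belonged to PTBP2, SRSF4, SNRPN, HNRNPH1 and U2AF2. PTBP2 read 7.34, 7.31 and 7.53 with doxycycline against 7.81, 7.76 and 7.75 without, a difference of -0.38 (limma adjusted p = 1.00). The 2 genes without overlap were PTBP2 and SRSF4, the second higher by 0.20, beside 5.08% of all genes higher and 3.47% lower without overlap. SNRPN differed by 0.21 with signals of 3.22, 3.07 and 2.83 against 2.90, 2.92 and 2.66. HNRNPH1 read 12.26, 12.25 and 12.43 against 12.40, 12.50 and 12.46 (-0.14), and U2AF2 differed by -0.22. In the interaction U2AF2 (0.41), SNRPA1 (0.26), HNRNPA0 (-0.24), SF3A1 (0.51) and HNRNPU (-0.31) had the smallest p, of which the lowest was 0.100 before adjustment. SNRPA1 read 11.81, 11.76 and 11.81 under PMA with doxycycline and 11.75, 11.49 and 11.65 under PMA, against 12.03, 11.80 and 11.90 under vehicle with doxycycline and 11.98, 11.90 and 12.14 under vehicle. A p that misses the threshold does not show that a gene was the same in both groups.

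**Figure D5:**
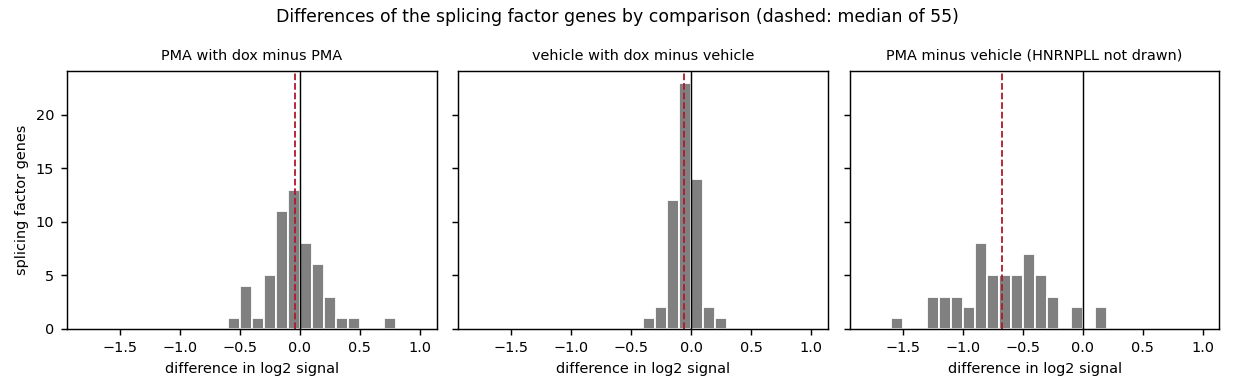
Histograms of the difference in log2 signal of the splicing factor genes for PMA with doxycycline minus PMA, vehicle with doxycycline minus vehicle, and PMA minus vehicle, with the number of genes on the vertical axis and dashed lines at the medians of -0.04, -0.06 and -0.67. The first 2 lie around 0 and the third mostly below it, and HNRNPLL is not drawn in the third.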

How the data were processed

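From 100 ng of total RNA a 3′ IVT kit made the labelled cRNA, per the labels' protocols, and hybridised to 12 arrays, 1 per sample. The deposited log2 values were made by the authors with RMA, per the submitters' processing notes, and the version of RMA is not given in the sources used here. RMA sets values relative to the whole array, so differences are relative too. No further scaling was applied. Of 54675 probe sets 62 were controls, 41091 had 1 gene symbol, 1801 several and 11721 none in the platform annotation, and 41037 symbols were updated through Entrez numbers. Each gene's probe set of highest mean (12 arrays) stood for it, which gave 19775 genes.

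Group means of all 12 arrays were fitted in R 4.3.3 with limma 3.58.1, functions lmFit and eBayes (8 residual and 5.6 prior degrees of freedom). Tests were two-sided, with Benjamini-Hochberg adjustment over all genes and a threshold of 0.05. The procedure was tested on simulated data. Alternatives were the replicate block, other probe set choices, cyclic loess, median centring, a filter on genes with a mean under 5, a trended prior, groups of a comparison alone, and each array left out. An adjustment over probe sets, and the level of 9 that marks bright genes, were added after seeing the data. Same-numbered arrays with and without doxycycline deviated together from their group means (r = 0.637, 0.288 and 0.324 under PMA, 0.57, 0.254 and 0.308 under vehicle). The main fit did not pair them. They were paired within agents, but not across agents, only in the counts of pairs and in an alternative fit.

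The members and lists were chosen with earlier results of these data known. Named genes followed a rule: ZXDC, the members of each family with the largest called PMA differences (up to 4 in each direction, with no overlap), the 5 of smallest p in comparisons with no call, and up to 2 called genes in each direction of other lists. Levels were not ranked between genes, because different probe sets can be compared in level only roughly. Bright, moderate and dim describe the signal of a probe set, not the amount of a transcript. Promoter letters came from RefSeq on GRCh38.p14, and CD33 and CD68 among the markers were not analysed here.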

Additional observations from a re-analysis of the deposited data

How the results depend on the processing

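The fit with a replicate block called 48 members in PMA against vehicle and 40 with doxycycline, against 43 and 39 without it. Shares of all genes called under each alternative are not given here. The counts therefore compare the members between settings only, and not with other genes. A block over the 6 pairs called 0 members in either doxycycline comparison, and the comparisons of doxycycline and the interaction had 0 called members under every alternative run. With single arrays left out the counts were 36 to 44 and 34 to 41. Without probe sets named _x_at or _s_at, 28 of 45 tested members were called in each comparison: 27 lower and 1 higher without doxycycline, 25 lower and 3 higher with it. Under that choice the sign turned in PMA against vehicle for HNRNPD (0.40), HNRNPM (0.65), PTBP1 (0.13), SNRPA1 (0.11), SRSF3 (0.29), SRSF7 (0.11) and U2AF2 (0.067), none of them called. With doxycycline it turned for HNRNPD (0.64), HNRNPM (1.25, adjusted p = 0.0012), SRSF3 (0.43) and SRSF7 (0.025), and in the interaction for U2AF2 (-0.11). With all probe sets of a gene averaged, 38 and 34 members were called, and the sign turned for PTBP3 (0.0037) without doxycycline and for PTBP3 (0.016), SF3B6 (0.077), SRSF4 (0.071) and U2AF1 (0.029) with it, and for SRSF4 in vehicle with doxycycline against vehicle (-0.088). These changes follow from other probe sets standing for the gene, and what those detect was not tested. Cyclic loess called 36 and 34, median centring 46 and 39, and a filter on dim genes 46 of 53 and 39. ZXDC missed an exact permutation p of 0.05 on probe sets 230209_at (-0.33, p = 0.135) and 230106_at (-0.30, p = 0.105), and without replicate 1 (-0.39, where p could not go below 0.0556). Dim members (SNRPN, SRSF12) are near the limit of detection.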
